A study of Mus musculus with 8 samples.

Results

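The metallothionein genes Mt1, Mt2 and Mt3 were followed through ribosome-protected fragments sequenced from mouse brain. They were taken from the deposited table by symbol and made up 3 of the 21874 genes with a protein-coding transcript. The transcript of each gene was chosen by its read coverage over the 8 libraries, but each has 1 transcript in the table, so that choice did not change their counts. The choice for other genes entered the fits, as the alternatives below show. The genes had been picked with earlier results of these data known, so their levels are a description.

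Metallothioneins are small, cysteine-rich proteins that bind zinc and copper and buffer the free level of these metals. Mt1 and Mt2 are made in many tissues, in the brain largely in glia, and are induced by zinc, by glucocorticoids and by oxidative stress. Mt3 is the brain-enriched form, known in neurons and astrocytes, and Mt4 is known from stratified epithelia. Zinc acts on Mt1 and Mt2 through the factor MTF-1, which binds metal response elements in their promoters.

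All mice belonged to a congenic FVB colony of the Taiwanese model of severe spinal muscular atrophy (SMA), in which mouse Smn is disrupted and human SMN2 copies supply little survival motor neuron protein (SMN). All carried SMN2tg/0 and were taken at postnatal day 5. The 3 SMN immunoprecipitates were made from Smn+/-; SMN2tg/0 brains, the phenotypically normal littermates, by pulling ribosomes down with an anti-SMN antibody after RNase I digestion and pelleting. The 1 IgG immunoprecipitate was made from the same genotype in the same way with control IgG, to measure unspecific capture. The 2 RiboLace libraries, from a capture of ribosomes in active translation, and the 2 polysome libraries, from pooled polysome fractions of sucrose gradients, were made from early symptomatic Smn-/-; SMN2tg/0 brains. Libraries of a group are biological replicates by their labels, and control-genotype RiboLace and polysome libraries were not analysed here. The SMN immunoprecipitates therefore differ from the RiboLace and polysome libraries in both genotype and protocol, which cannot be told apart.

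The metallothionein genes lie side by side on mouse chromosome 8, in the order Mt4, Mt3, Mt2 and Mt1 in RefSeq (GRCm38.p6). Promoter windows around their annotated starts are printed to show where cores of the metal response element occur in them. The windows run on the plus strand at chr8:94178839-94179138 for Mt1, chr8:94172368-94172667 for Mt2 and chr8:94152357-94152656 for Mt3, from RefSeq (GRCm38.p6), with 250 bases before the start the table uses and 50 from it on. For Mt1 that start lies 206 bases downstream of the start of the gene record. Capitals mark the core of the metal response element, searched as TGCACNC and TGCGCNC on both strands.
Mt1: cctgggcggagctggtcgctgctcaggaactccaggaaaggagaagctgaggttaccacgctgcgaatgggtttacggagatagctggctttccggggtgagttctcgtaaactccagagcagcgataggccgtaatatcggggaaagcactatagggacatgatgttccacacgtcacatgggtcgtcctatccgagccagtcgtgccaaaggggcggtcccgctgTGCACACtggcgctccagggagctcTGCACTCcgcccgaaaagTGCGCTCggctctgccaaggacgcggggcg
Mt2: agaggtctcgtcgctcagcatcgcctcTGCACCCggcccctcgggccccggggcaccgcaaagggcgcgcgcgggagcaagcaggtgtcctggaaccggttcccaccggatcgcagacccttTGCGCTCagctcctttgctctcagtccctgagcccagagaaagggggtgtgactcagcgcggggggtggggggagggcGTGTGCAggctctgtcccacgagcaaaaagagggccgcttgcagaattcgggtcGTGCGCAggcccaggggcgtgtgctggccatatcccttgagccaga
Mt3: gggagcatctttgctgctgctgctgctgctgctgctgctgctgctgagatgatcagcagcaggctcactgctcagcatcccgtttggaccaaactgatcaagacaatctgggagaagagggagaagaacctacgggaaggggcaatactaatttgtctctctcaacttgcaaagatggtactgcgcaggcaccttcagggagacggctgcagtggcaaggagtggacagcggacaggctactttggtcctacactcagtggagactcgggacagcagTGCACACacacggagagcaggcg
The Mt2 window holds 4 cores and the Mt1 window 3, against 1 in the Mt3 window. Counted from the start the table uses, the Mt2 cores begin at -223, -128, -50 and 5, the Mt1 cores at -23, 3 and 21 and the Mt3 core at 28. All 3 Mt1 cores thus lie inside the gene record, and 1 Mt2 core and the Mt3 core lie past the start. Of 32851 RefSeq promoter windows of the same length, 25.7% hold at least 1 core, 1.97% at least 3 and 0.517% at least 4. A match describes these letters and was not tested as a binding site. None of the windows holds TATAAA on the plus strand. Sequence beyond the windows was not searched, so the counts need not cover the whole promoters. They are not read as a measure of the response to metal.

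The 3 transcripts are short. The coding sequence has 186 nucleotides in Mt1 and in Mt2 and 207 in Mt3, so few fragments fall on each. Counted on 1 transcript per coding gene, the SMN immunoprecipitates held 133295 to 237760 reads, the IgG library 206690, the RiboLace libraries 39375 and 47846 and the polysome libraries 1661834 and 2295393. Levels are given as reads per 1000000 of these coding reads (CPM), and 1 read is worth 25.4 CPM in the shallowest library, RiboLace replicate 2, and 0.436 CPM in the deepest, polysome replicate 2. Intervals on single libraries are exact Poisson or Clopper-Pearson intervals at 95% and cover counting error only. SMN replicate 2 stood apart from the other immunoprecipitates: the chi-square per gene, over genes with at least 10 reads in the pair, was 3.18 and 3.26 against SMN replicates 1 and 3, and 1.34 between those replicates. The IgG library was as near to SMN replicates 1 and 3 as they were to each other, at 1.42 and 1.26, and stood at 3.70 against SMN replicate 2. Most group means, tests and counts that rest on the SMN immunoprecipitates are therefore also given without SMN replicate 2.

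Together the 3 genes took 24, 60 and 38 reads in SMN replicates 1 to 3, 40 in the IgG library, 46 and 36 in the RiboLace libraries and 1098 and 1647 in the polysome libraries. That is 261 ± 164 CPM in the SMN immunoprecipitates (SD, n = 3) and 194 CPM in IgG, and 938 ± 33.3 CPM in RiboLace against 689 ± 40.2 CPM in polysomes (SD, n = 2 each). The SMN mean was above IgG through SMN replicate 2 alone, and without it was 167 ± 9.75 CPM (SD, n = 2), below IgG. Metallothionein footprints were thus a larger part of the RiboLace and polysome libraries than of any immunoprecipitate. Mt4 had 0 reads in all 8 libraries. In brain tissue, fewer cells of a type and fewer footprints per cell cannot be told apart.

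Mt1 had 10, 25 and 15 reads in the SMN immunoprecipitates, or 72.3, 188 and 63.1 CPM. The IgG library held 7 Mt1 reads, or 33.9 CPM (interval 13.6 to 69.8). Mt1 stood at 334 and 305 CPM in the RiboLace libraries, from 16 and 12 reads, and at 184 and 218 CPM in the polysome libraries, from 305 and 501 reads. SMN replicate 2 reached the polysome range while the other SMN replicates stayed well below it, and the RiboLace values were above all others.

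Mt2, which encodes a protein closely related to that of Mt1, was the least covered member in the immunoprecipitates. It had 3, 4 and 3 reads in the SMN immunoprecipitates, or 21.7, 30.01 and 12.6 CPM, and 6 reads, or 29.0 CPM, in the IgG library (interval 10.7 to 63.2). The RiboLace libraries held 7 and 5 Mt2 reads, or 146 and 127 CPM, and the polysome libraries 286 and 472, or 172 and 206 CPM. All 4 immunoprecipitates had lower Mt2 values than all RiboLace and polysome libraries. The intervals of the RiboLace libraries (58.8 to 301 and 41.2 to 296) still overlapped those of SMN replicates 1 (4.48 to 63.4) and 2 (8.18 to 76.8) and of IgG. At the mean polysome level, the SMN immunoprecipitates would have held 26.1, 25.2 and 44.9 Mt2 reads and the IgG library 39.0.

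Mt3 was the most covered member in every library. It had 11, 31 and 20 reads in the SMN immunoprecipitates, or 79.6, 233 and 84.1 CPM, and 27 reads, or 131 CPM, in the IgG library (interval 86.1 to 190.1). In the RiboLace libraries it stood at 481 and 483 CPM, from 23 and 19 reads, and in the polysome libraries at 305 and 294 CPM, from 507 and 674 reads. The IgG value lay inside the range of the SMN replicates, and the RiboLace, polysome and immunoprecipitate values did not overlap. Their intervals did: those of SMN replicate 2 (158 to 330) and RiboLace (305 to 721 and 291 to 754) overlapped those of polysomes (279 to 333 and 272 to 317).

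**Figure D1:**
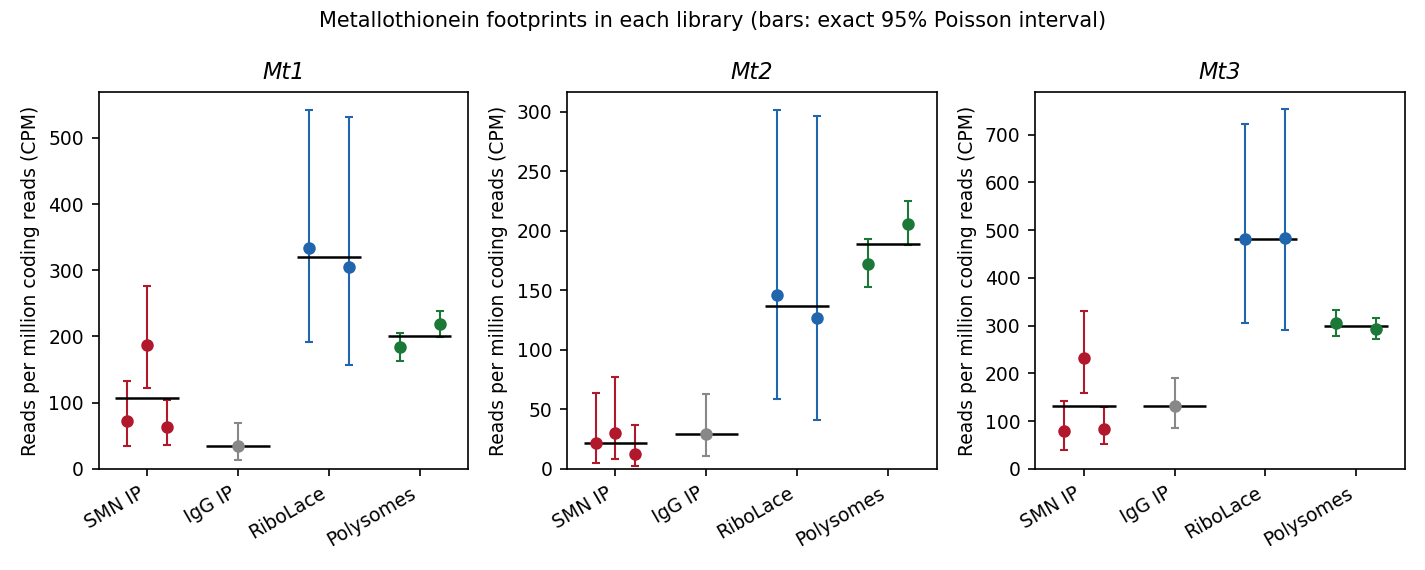
CPM of Mt1, Mt2 and Mt3 (vertical axes, linear, from 0) in each of the 8 libraries, by group. Points are libraries and bars are exact 95% Poisson intervals, which cover counting error only. Mt2 lies between 12.6 and 30.01 CPM in the SMN immunoprecipitates and at 172 and 206 CPM in the polysome libraries, while the SMN replicates of Mt1 and Mt3 spread more widely.

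Over groups, Mt1 and Mt3 had the highest mean in RiboLace, then in polysomes, and lower means in the SMN immunoprecipitate and IgG. Mt2 had its highest mean in polysomes, then RiboLace, then IgG, then the SMN immunoprecipitate. The mean of Mt1 was 108 ± 69.3 CPM in the SMN immunoprecipitates, 320 ± 21.0 in RiboLace and 201 ± 24.6 in polysomes (SD). The mean of Mt3 was 132 ± 87.0 CPM in the SMN immunoprecipitates, 482 ± 1.29 in RiboLace and 299 ± 8.10 in polysomes. The mean of Mt2 was 21.4 ± 8.70 CPM in the SMN immunoprecipitates, 137 ± 13.7 in RiboLace and 189 ± 23.7 in polysomes. For Mt2 and Mt3, the IgG value and the SMN mean differed by less than the SD of the SMN replicates, so these neighbours in the order were not separated. For Mt1 the IgG library was below all 3 SMN replicates, and SMN replicate 2 overlapped the polysome libraries. With SMN replicate 2 left out, the SMN means were 67.7 ± 6.54 CPM for Mt1, 17.2 ± 6.42 for Mt2 and 81.8 ± 3.21 for Mt3 (SD, n = 2), which placed Mt1 above IgG and Mt2 and Mt3 below it.

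Levels of different genes are compared per kilobase of coding sequence. On this scale Mt3 stood at 1446 ± 39.1 CPM per kilobase in polysomes, Mt1 at 1080.1 ± 132 and Mt2 at 1015 ± 127 (SD, n = 2), and the last pair overlapped. Per kilobase, Mt3 was ranked 18 and 20 of 21874 coding genes in the polysome libraries, Mt1 64 and 40 and Mt2 72 and 48. These ranks rest on division by a short coding length. By CPM the ranks were 519 and 534 for Mt3, 1254 and 945 for Mt1 and 1366 and 1036 for Mt2. RiboLace kept Mt3 highest, at 2327 ± 6.25 CPM per kilobase, followed by Mt1 at 1718 ± 113, and placed Mt2 lower, at 735 ± 73.4. In the SMN immunoprecipitates Mt3 (638 ± 421) and Mt1 (579 ± 373) did not differ beyond their spread, and Mt2 stood at 115 ± 46.8 CPM per kilobase (SD, n = 3), ranked 1049 to 2571. With SMN replicate 2 left out these levels were 395 ± 15.5 for Mt3, 364 ± 35.2 for Mt1 and 92.3 ± 34.5 CPM per kilobase for Mt2 (SD, n = 2). In the IgG library the levels were 631 for Mt3, 182 for Mt1 and 156 CPM per kilobase for Mt2.

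How the family's reads divide among its members does not depend on library scaling. Mt2 took 12.5%, 6.67% and 7.89% of the metallothionein reads in SMN replicates 1 to 3 and 15.0% in IgG (interval 5.71 to 29.8). Its share was 15.2% and 13.9% in RiboLace, against 26.0% and 28.7% in polysomes. The intervals in the polysome libraries were 23.5 to 28.8 and 26.5 to 30.9, and they overlapped those of SMN replicate 1 (2.66 to 32.4) and of both RiboLace libraries (6.34 to 28.9 and 4.67 to 29.5) but not those of SMN replicates 2 (1.85 to 16.2) and 3 (1.66 to 21.4). The Mt2 share was 9.02% ± 3.08 in the SMN immunoprecipitates and 27.4% ± 1.85 in polysomes, a difference of -18.3 percentage points, and the exact two-sided permutation test gave p = 0.2, the smallest that its 10 arrangements allow. For RiboLace (14.6% ± 0.939) against polysomes the difference was -12.8 points, with exact permutation p = 0.333, the smallest that 6 arrangements allow. No value of the lower group reached the higher group in either case, and neither design can reach 0.05.

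Put as a ratio, the SMN immunoprecipitates held 0.30, 0.16 and 0.20 Mt2 reads per Mt1 read and the IgG library 0.857. RiboLace held 0.438 and 0.417, and polysomes 0.938 and 0.942. Mt1 and Mt2 were thus close to equal in polysomes and in the IgG library, and Mt2 was the scarcer in the SMN immunoprecipitates and RiboLace. The IgG ratio rests on 6 and 7 reads. Mt1 took 41.7%, 41.7% and 39.5% of the family's reads in the SMN immunoprecipitates, against 17.5% in IgG (interval 7.34 to 32.8), 34.8% and 33.3% in RiboLace and 27.8% and 30.4% in polysomes. The share of Mt3 was 45.8%, 51.7% and 52.6% in the SMN immunoprecipitates, 67.5% in IgG (interval 50.9 to 81.4), 50.0% and 52.8% in RiboLace and 46.2% and 40.9% in polysomes. Its SMN and polysome values overlapped, with exact permutation p = 0.4. The coding sequences of Mt1 and Mt2 are alike, and whether reads were shared between them was not tested.

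**Figure D2:**
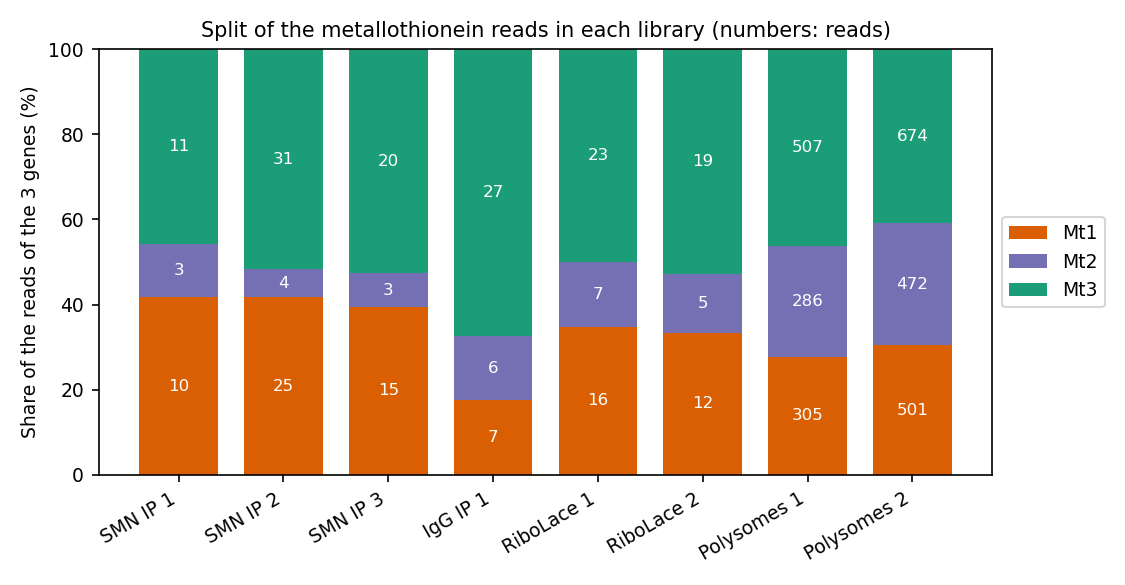
Percent of the metallothionein reads (vertical axis, from 0) that fell on Mt1, Mt2 and Mt3 in each of the 8 libraries, with the read numbers printed in the bars. The Mt2 segment covers 6.67% to 12.5% in the SMN immunoprecipitates, against 26.0% and 28.7% in polysomes.

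The SMN immunoprecipitate was set against IgG to ask which footprints the SMN antibody captured beyond unspecific binding. No metallothionein gene passed the test. Of 5517 coding genes tested, 0.0181% were called at an adjusted p under 0.05 by edgeR's quasi-likelihood test, a single gene that was lower, and 99 were higher and 49 lower at an unadjusted p under 0.05. DESeq2 called 0. Mt1 had a log2 fold change of 1.61 (SE 0.73, interval 0.19 to 3.04, edgeR adjusted p = 0.999) and passed the filter on low counts through the SMN libraries alone. Its value was 0.97 without SMN replicate 2. Mt3 had a log2 fold change of -0.01 (SE 0.55, interval -1.08 to 1.06, edgeR adjusted p = 0.999), and -0.66 without SMN replicate 2. Mt2 did not pass the filter on low counts, and with no filter its log2 fold change was -0.54 (SE 0.90, interval -2.31 to 1.22, edgeR adjusted p = 0.983). The lone IgG library was taken to vary as the SMN replicates do.

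RiboLace was set against polysomes within SMA brains, where the protocol and the state of the ribosomes cannot be told apart. None of the 3 genes passed the test, against 2.24% of the 10807 genes tested, 1.31% higher and 0.925% lower. Mt1 and Mt3 had like log2 fold changes, 0.63 (SE 0.30, interval 0.03 to 1.22, edgeR adjusted p = 0.304) and 0.65 (SE 0.26, interval 0.14 to 1.15, edgeR adjusted p = 0.175). Mt2 lay on the other side of 0, at -0.51 (SE 0.40, interval -1.29 to 0.27, edgeR adjusted p = 0.558). The median over all genes tested was -0.29. The Mt2 interval overlapped those of the other members, and the difference between members was not tested in this fit.

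In the SMN immunoprecipitate against polysomes all 3 log2 fold changes were below 0, and Mt2 and Mt3 had an adjusted p under 0.05. Of the 6484 genes tested 27.5% were called, 11.1% lower and 16.4% higher. Fold changes here are TMM-scaled, so they differ a little from ratios of the CPM above. Mt2 was 8.02-fold lower in the SMN immunoprecipitates (log2 fold change -3.00, SE 0.39, interval -3.82 to -2.19, edgeR adjusted p = 1.14e-04). It passed the filter on low counts through the polysome libraries alone, where it was high, so its presence among the genes tested is tied to this difference and its place among them is not read. Fitted with no filter, its log2 fold change was -3.16, from the same 10 reads in the SMN immunoprecipitates. Mt3 was 2.00-fold lower (log2 fold change -0.998, SE 0.33, interval -1.70 to -0.29, edgeR adjusted p = 0.0362), at rank 658. Mt1 had a log2 fold change of -0.76 (SE 0.31, interval -1.42 to -0.10, edgeR adjusted p = 0.0813) and did not pass. The Mt2 interval lay wholly below those of Mt1 and Mt3. The IgG library also lay below the polysome means, at 33.9 against 201 CPM for Mt1, 29.0 against 189 for Mt2 and 131 against 299 for Mt3. Lower values than in polysomes were thus not particular to the SMN antibody, and IgG against polysomes was not tested.

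Without SMN replicate 2 the log2 fold changes against polysomes were -1.37 for Mt1 (edgeR adjusted p = 1.57e-04), -3.33 for Mt2 and -1.62 for Mt3 (edgeR adjusted p = 1.07e-06), so that Mt1 passed too. The call for Mt3 was lost without SMN replicate 1, without SMN replicate 3 or without either polysome library, with log2 fold changes of -1.04 to -0.72. The log2 fold change of Mt2 ran from -3.33 to -2.64 with each library left out. Scaling by library totals moved the median of all genes by more than 0.1, to -0.28, and Mt1, at -1.02, then passed the test.

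Against RiboLace, the log2 fold changes of the SMN immunoprecipitate were again below 0 for all 3 members, and Mt3 alone passed the test. Of the 4013 genes tested 1.45% were called, 0.772% lower and 0.673% higher. Mt3 was 3.64-fold lower in the SMN immunoprecipitates (log2 fold change -1.86, SE 0.46, interval -2.82 to -0.91, edgeR adjusted p = 0.0375). Mt2 had a log2 fold change of -2.67 (SE 0.78, interval -4.28 to -1.05, edgeR adjusted p = 0.0919) and Mt1 one of -1.58 (SE 0.50, interval -2.60 to -0.56, edgeR adjusted p = 0.110). The Mt2 value rested on 10 reads in the SMN immunoprecipitates and 12 in RiboLace and had the widest interval of the 3, and Mt2 passed the filter on low counts through RiboLace alone. Mt1 reached the level the filter asks for in both RiboLace libraries and in 1 SMN library. All 3 passed without SMN replicate 2, at -2.30 for Mt1, -3.08 for Mt2 and -2.59 for Mt3 (edgeR adjusted p = 6.43e-05, 2.51e-04 and 1.53e-06). The call for Mt3 was lost when any other library of this comparison was left out. The IgG library was below the RiboLace means as well, at 33.9 against 320 CPM for Mt1, 29.0 against 137 for Mt2 and 131 against 482 for Mt3. This comparison shares its SMN libraries with the one against polysomes, so the pair is not independent.

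**Figure D3:**
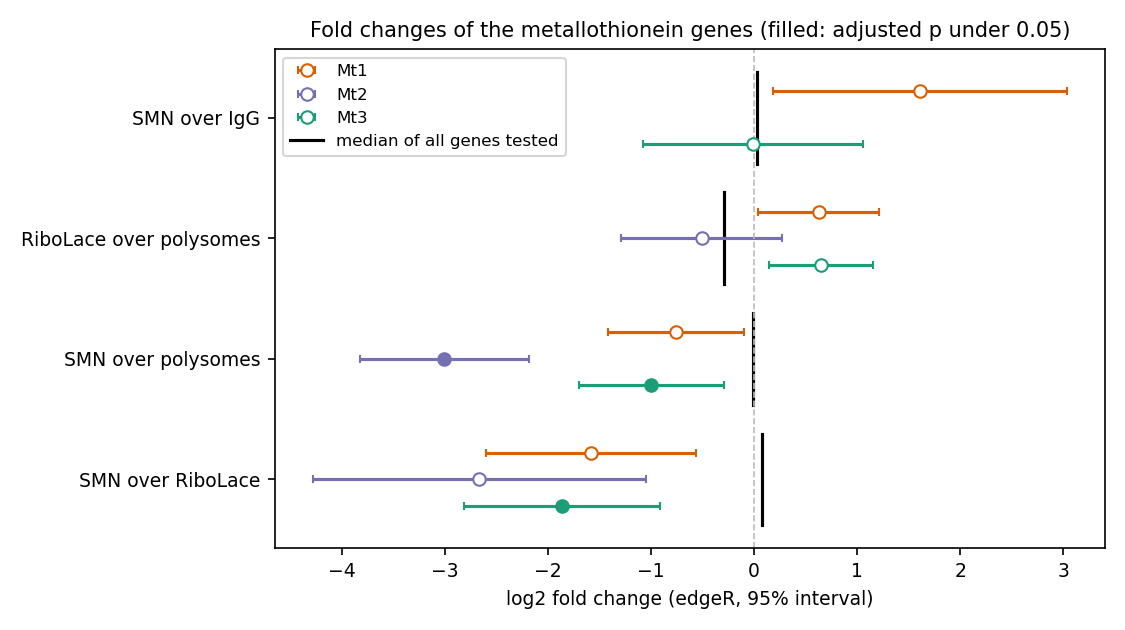
Log2 fold changes of Mt1, Mt2 and Mt3 with 95% intervals in the 4 comparisons, where a filled point is an edgeR adjusted p under 0.05. Mt2 and Mt3 are filled in the SMN immunoprecipitate over polysomes and Mt3 in the SMN immunoprecipitate over RiboLace. Mt2 is not drawn for the SMN immunoprecipitate over IgG, where it was not tested.

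The coding sequences of all 3 members are short, and short genes as a group were often lower in the SMN immunoprecipitates. Among 156 genes tested against polysomes with a coding sequence of up to 300 nucleotides, 56 were lower (35.9%) and 14 higher (8.97%). Over all genes tested 11.1% were lower and 16.4% higher. These short genes, a group chosen after the members' lengths were seen, had a median log2 fold change of -0.61, against -0.02 over all genes tested. With SMN replicate 2 left out the share lower was 33.6% of 244, against 14.5% of all genes tested. In the fit with all SMN replicates, Mt1 (-0.76) and Mt3 (-0.998) lay below the median of the short genes. The place of Mt2 among them is not read, because it passed the filter on low counts through the polysome libraries alone. Against RiboLace the short genes had a median of -0.76, with 3 of 98 lower (3.06%) and 1 higher (1.02%). Over all genes tested there, 0.772% were lower and 0.673% higher. Without SMN replicate 2 the short genes had a median of -1.17, with 30 of 58 lower (51.7%) and 1 higher (1.72%). In that fit 10.7% of all genes tested were lower and 8.24% higher. For RiboLace over polysomes the median of 247 short genes was -0.06, with 11 higher (4.45%) and 2 lower (0.810%). Over all genes tested there, 1.31% were higher and 0.925% lower. In the SMN immunoprecipitate over IgG the median of short genes was 0.10, with 0 of 109 called, against 0.0181% of all genes tested. The part of coding length in the member values was not tested.

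**Figure D4:**
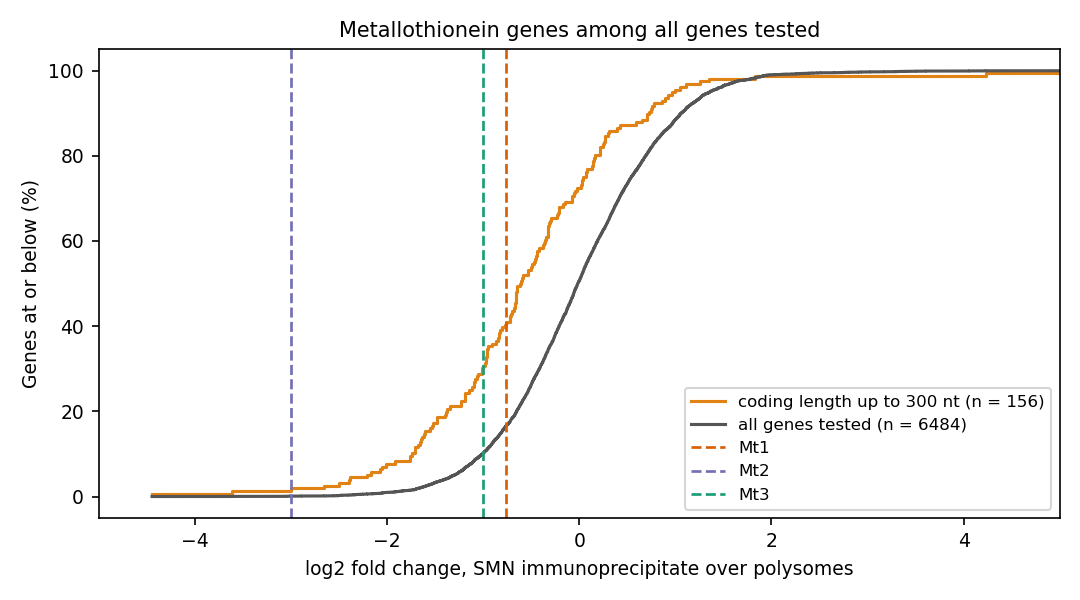
Cumulative percent of genes (vertical axis) at or below each log2 fold change of the SMN immunoprecipitate over polysomes (horizontal axis), for all 6484 genes tested and for the 156 with a coding sequence of up to 300 nucleotides, with dashed lines at the metallothionein genes. The curve of short genes lies left of that of all genes over most of its range, with Mt2 at -3.00, Mt3 at -0.998 and Mt1 at -0.76. The place of Mt2 on the curves is not read, because it passed the filter on low counts through the polysome libraries alone. The few highest values fall outside the axis.

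Genes that move or bind the same metals were read beside the members. Counts in the SMN immunoprecipitate over polysomes stand against 27.5% of all genes called, or 30.4% without SMN replicate 2, where 16.0% were higher and 14.5% lower. Of 21 zinc-handling genes, which include the Slc39a importers and Slc30a exporters, 12 were tested in the SMN immunoprecipitate over polysomes and 0 passed, with a median of -0.19. The importers with the highest counts stood at log2 fold changes of -0.21 for Slc39a6, -0.26 for Slc39a10, 0.50 for Slc39a1 and 0.36 for Slc39a7. With SMN replicate 2 left out, 1 of 18 was higher and 2 were lower. In RiboLace over polysomes 0 of 18 zinc genes passed, with a median of -0.57, where 2.24% of all genes were called. Against IgG 0 of 10 passed, where 0.0181% of all genes were called. At these low shares, 0 calls in a list this short is not read as a result about it.

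Of the 7 copper-handling genes tested in the SMN immunoprecipitate over polysomes, 0 passed, with a median of -0.60. App, the amyloid precursor with a copper-binding domain, stood at a log2 fold change of 0.70. Sod1, the copper and zinc superoxide dismutase, stood at -0.52, its copper chaperone Ccs at -0.81 and the copper-binding prion protein gene Prnp at -0.35. When SMN replicate 2 was left out, 3 of 13 were lower. In RiboLace over polysomes, where 1.31% of all genes were higher, 1 of 13 was higher. This was the ferroxidase ceruloplasmin gene Cp, with a log2 fold change of 3.04 (SE 0.78, edgeR adjusted p = 0.00812). Among iron genes, 1 of 9 was lower in the SMN immunoprecipitate over polysomes, the ferritin heavy chain gene Fth1, at -0.71 (SE 0.25, edgeR adjusted p = 0.0438). Without SMN replicate 2, 2 of 15 were lower, against 14.5% of all genes. In RiboLace over polysomes 0 of 14 iron genes passed, against 2.24% of all genes.

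Products of glutathione and redox genes act beside metallothioneins in oxidative defence, and 2 of 19 such genes passed the test in the SMN immunoprecipitate over polysomes, a smaller share than the 27.5% of all genes. The mitochondrial peroxiredoxin gene Prdx3 was lower (-1.11, SE 0.26, edgeR adjusted p = 0.00639) and the cytosolic Prdx2 higher (0.80, SE 0.27, edgeR adjusted p = 0.0352). Leaving out SMN replicate 2 gave 2 of 23 higher and 7 lower. That is 39.1% called, a larger share than the 30.4% of all genes in that fit, so the smaller share did not hold. In RiboLace over polysomes Prdx2 was higher (1.22) and the mitochondrial superoxide dismutase gene Sod2 lower (-1.64), of 22 tested. Of all genes tested there, 2.24% were called. Against IgG and against RiboLace, 0 genes of the zinc, copper, iron and redox lists passed, where 0.0181% and 1.45% of all genes were called. In the comparison with RiboLace, leaving out SMN replicate 2 gave 2 of 3 copper genes and 2 of 8 redox genes lower, against 10.7% of all genes.

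Mt1 and Mt2 are glucocorticoid-induced, and genes of the glucocorticoid and acute stress response were read beside them. In the SMN immunoprecipitate over polysomes 8 were tested, with a median of -0.72, of which 1 was higher, Sgk1 (1.26), and 2 were lower, Nfkbia (-1.64) and Klf9 (-1.51). Of all genes tested there, 16.4% were higher and 11.1% lower. Leaving out SMN replicate 2 gave 1 of 12 higher and 4 lower, against 16.0% and 14.5% of all genes. In the other comparisons 0 of 4 passed against IgG, 0 of 12 in RiboLace over polysomes and 0 of 2 in the SMN immunoprecipitate over RiboLace. The shares of all genes called there were 0.0181%, 2.24% and 1.45%. Without SMN replicate 2, 1 of 2 was lower over RiboLace, against 10.7% of all genes.

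Astrocytes are a main source of metallothioneins in brain, and their markers were measured beside the members. All 17 markers were tested, and their summed level was 6228, 8042 and 6208 CPM in the SMN immunoprecipitates, 5061 in IgG, 10534 and 9092 in RiboLace and 7088 and 7241 in polysomes. The sum was highest in RiboLace, and SMN replicate 2 was the highest immunoprecipitate. The summed level of 14 neuron markers was also highest in RiboLace, at 13000 and 12495 CPM. It was 10142, 12041 and 10620 CPM in the SMN immunoprecipitates, 10339 in IgG and 8168 and 7665 in polysomes. Every immunoprecipitate thus lay above polysomes for neuron markers. For astrocyte markers, IgG and SMN replicates 1 and 3 lay below polysomes. In the SMN immunoprecipitate over polysomes 4 of 17 markers were higher and 0 lower, with a median of 0.01, among them Apoe (1.01), Cst3 (0.85) and Aldh1l1 (0.73), in a comparison where 16.4% of all genes were higher and 11.1% lower. Leaving out SMN replicate 2 gave 6 higher and 4 lower, against 16.0% and 14.5% of all genes. In RiboLace over polysomes 4 of 17 were higher, Fabp7 (1.41), Cst3 (1.18), Apoe (1.17) and Dbi (1.15), and 0 lower. Of all genes tested there, 1.31% were higher and 0.925% lower. Against RiboLace 0 of 16 passed, and 6 were lower and 1 higher without SMN replicate 2, against 10.7% and 8.24% of all genes. No marker was without a read over the 8 libraries, and the part of astrocytes in the member values was not tested. In the SMN immunoprecipitate over polysomes, 4 of 14 neuron markers were higher and 0 lower, and 3 of 6 microglia markers were lower and 0 higher, the complement genes C1qa (-1.62), C1qb (-1.73) and C1qc (-1.67). Without SMN replicate 2, 5 of 14 neuron markers were higher and 1 lower, and 3 of 8 microglia markers were lower. Summed microglia markers stood at 311, 525 and 269 CPM in the SMN immunoprecipitates, 237 in IgG, 334 and 457 in RiboLace and 649 and 646 in polysomes. Of the other lists there, 1 of 8 oligodendrocyte lineage markers was higher, Cspg4 (0.90), and 0 of 3 choroid plexus and ependymal and 0 of 7 endothelial and mural markers passed. Without SMN replicate 2, 1 of 8 oligodendrocyte lineage markers was higher and 2 were lower. In that fit 1 of 5 choroid plexus and ependymal markers was lower, and 0 of 9 endothelial and mural markers passed. In RiboLace over polysomes 3 of 14 neuron markers were higher, Tubb3 (1.13), Stmn2 (1.23) and Gap43 (0.91), and Gad2 was lower (-1.38). Of 6 choroid plexus and ependymal markers 1 was higher there, Ttr (1.10). Genes of blood cells moved with RiboLace too, as 4 of 5 were higher over polysomes. In the SMN immunoprecipitate over RiboLace 4 of 4 were lower, where 0.772% of all genes were lower. Without SMN replicate 2 this was again 4 of 4, against 10.7%. The 6 blood cell genes summed to 5267 and 6375 CPM in RiboLace, against 1912 and 2596 CPM in polysomes and 1673 to 2288 CPM in the immunoprecipitates. The part of these cell types in the member values was not tested.

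Likeness of pattern was measured as the root mean square difference of log2 CPM centred on each gene's mean over the 8 libraries, among 3606 other genes with a mean log2 CPM of at least 6. The genes most like Mt1 were Thy1 (0.27), Bcar1 (0.30), Txn1 (0.32), Yipf5 (0.37) and Ndufc2 (0.37), with Mt3 at rank 26 and Mt2 at rank 601. Those most like Mt3 were Tomm7 (0.26), Tmem35 (0.26), Atp6v0e2 (0.31), Tra2a (0.32) and BC031181 (0.34), with Mt1 at rank 82 and Mt2 at rank 509. Those most like Mt2 were mt-Cytb (0.32), mt-Nd5 (0.35) and mt-Nd2 (0.42), which are encoded in the mitochondrial genome and are not metallothioneins, followed by BC031181 (0.54) and Tra2a (0.55), with Mt3 at rank 28 and Mt1 at rank 115. Mt1 and Mt3 differed by 0.50, against 0.88 between Mt1 and Mt2 and 0.73 between Mt2 and Mt3. These values describe 8 libraries that differ in depth, and the SMN part of the Mt2 pattern rests on 10 reads.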

How the data were processed

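Ribosome-protected fragments of 8 libraries were deposited as raw counts, 1 row per Ensembl transcript, with the lengths of UTRs and coding sequence in the file headers. The submitters' processing notes name Trimmomatic 0.36, Bowtie2 2.2.6, SAMtools and GRCm38.p4. The treatment of reads that match several transcripts was not given in the sources used here. For each gene the most covered protein-coding transcript was kept, after scaling by library. Testing used edgeR 4.0.16 (R 4.3.3): robust quasi-likelihood fits, two-sided, TMM scaling, filterByExpr at a minimum count of 10, only the groups compared, Benjamini-Hochberg adjustment over all genes tested and calls at an adjusted p under 0.05. Standard errors are |log2 fold change| over the root of F. DESeq2 1.42.0 and limma 3.58.1 served as alternatives, and Python 3.11.15 with pandas 2.3.3, scipy 1.17.1 and matplotlib 3.10.9 for tables, exact tests and figures. Members and gene lists were chosen with earlier results of these data known. From each list up to 4 genes per comparison were named, the called ones or, where fewer than 2 were called, those with the highest mean log2 CPM. For likeness the 5 closest genes were named, at a prior count of 2. P-values measure the spread between these libraries.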

Additional observations from a re-analysis of the deposited data

How the results depend on the processing

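Mt2 in the SMN immunoprecipitate over polysomes had log2 fold changes of -3.33 to -2.60 in the 15 alternatives that tested it. It was not tested with a minimum count of 50. In the main fit Mt2 passed the filter on low counts through the polysome libraries alone. The alternatives reuse the same libraries and the few Mt2 reads of the SMN immunoprecipitates, so their agreement is not independent support. The call for Mt3 in that comparison was lost with DESeq2 (-0.93), transcripts summed (-0.99), the transcript of highest raw total (-0.96) and the replicate number as a block (-0.76), and the values ran from -1.62 to -0.72 with each library left out. Mt1 there passed with library totals (-1.02), no filter (-0.92), all 8 libraries in 1 fit (-0.76) and noncoding genes included (-0.94), and ran from -1.37 to -0.41 with each library left out. In the SMN immunoprecipitate over RiboLace, Mt3 was lost with transcripts summed (-1.85), highest raw total (-1.88) and the replicate block (-1.70), while Mt1 (-1.60) and Mt2 (-2.70) passed with noncoding genes included, and Mt2 also without SMN replicate 1 (-2.72, edgeR adjusted p = 0.0177). With each library left out, Mt1 ran from -2.30 to -1.28, Mt2 from -3.08 to -2.33 and Mt3 from -2.59 to -1.61. DESeq2 gave no adjusted p for Mt1 and Mt2 there. Mt3 in RiboLace over polysomes passed with a minimum count of 50 (0.88). Mt3 in the SMN immunoprecipitate over IgG, at -0.01, changed sign with DESeq2 (0.022), noncoding genes (0.11) and transcripts summed (0.10), and ran from -0.66 to 0.26 with each SMN library left out; the IgG library cannot be left out.

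Counts of genes called moved more than the members. Against IgG (1 gene) DESeq2, a minimum count of 50 and transcripts summed gave 0 (37, 18 and 240 at an unadjusted p under 0.05), all 8 libraries gave 2, and leaving out a library 0 to 5. RiboLace over polysomes (242) gave 0 with limma-voom (1663 at an unadjusted p under 0.05), 64 with all 8 libraries, 1285 with noncoding genes, 58 with the replicate block and 33 to 183 with each library left out. The SMN immunoprecipitate over polysomes (1781) gave 360 with a minimum count of 50, 3319 with noncoding genes, 1115 with transcripts summed, 371 with the replicate block and 141 to 3348 with each library left out. Over RiboLace (58) it gave 98 with no filter, 544 with noncoding genes, 28 with the replicate block and 12 to 448 with each library left out. The labels do not say that equal replicate numbers share an animal, and same-numbered libraries deviated together with r of 0.048, -0.025 and -0.11 across genes for RiboLace and polysomes, SMN and polysomes, and SMN and RiboLace, so the numbers were not taken to pair samples. The cause of these changes was not tested. Depth limits Mt2 most, with 3 to 7 reads in each immunoprecipitate and RiboLace library.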
